A study of Mus musculus with 7 samples.

Results

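The 10 genes Cldn5, Pecam1, Cdh5, Esam, Flt1, Kdr, Tek, Tie1, Ly6c1 and Vwf are markers of the endothelial cells that line brain blood vessels, and they were measured here in samples of aspirated neurons. They are the rows of these 10 symbols among the 24062 gene symbols of the deposited count tables. The genes were chosen because they differed strongly between temperature-responsive and non-responsive samples in these same data, so that difference is given below as a description without a test. The neurons came from preoptic brain slices (the medial preoptic nucleus and rostral medial preoptic area) of ERα-ZsGreen mice aged 10 to 14 weeks, a line in which green fluorescence marks cells with estrogen receptor α. Mice were perfused before the slices were cut, per the methods. Every neuron of both groups was ZsGreen positive and was recorded at 25 °C and then at 30 °C, an increase of 5 °C. The 4 temperature-responsive samples (TR1 to TR4) held neurons whose firing rate rose past the study's cutoff on warming, and the 3 non-responsive samples (NR1 to NR3) held neurons that stayed below that cutoff. Each sample pooled the aspirated contents of 2 neurons, whose RNA was amplified before sequencing. The animal behind each sample is not given in the sources used here, so the spread between samples may be partly technical.

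Totals ranged from 1914497 to 2814360 counts in temperature-responsive samples and from 3309361 to 5125280 in non-responsive samples, and the groups also did not overlap in genes detected (19852 to 21177 against 17818 to 19820). A level of 3 counts, taken as the floor, equalled 0.585 to 1.57 CPM (counts scaled to a fixed library total) on raw totals, and covers counting error only. On the normalized totals behind the other CPM values, 3 counts equalled 0.566 CPM in NR2 and 1.61 CPM in TR2. Esr1, which encodes estrogen receptor α, had between 10 and 27 counts in each sample. The methods give female mice, whereas counts of the Y chromosome gene Ddx3y ran from 684 to 1150 and those of Xist, made from the inactive X, from 2 to 14. In every sample these counts go against the stated sex. The neuron markers listed for this check summed to between 3256 and 3879 CPM, beside sums of 2201 to 2665 CPM for astrocyte, 3221 to 5007 CPM for oligodendrocyte and 704.2 to 739.1 CPM for microglia markers, so that every sample held transcripts of several brain cell types.

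Brain endothelial cells form the blood-brain barrier. They are held together by tight junctions, in which claudin-5 is the main sealing protein, and by adherens junctions built on VE-cadherin. They sense vascular endothelial growth factor (VEGF) through receptor tyrosine kinases, and angiopoietins through a second receptor family that keeps mature vessels stable. Mural cells, the pericytes and smooth muscle cells, surround them within a shared basement membrane.

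Transcription factors of the ETS family, which bind a GGAA core, are known regulators of endothelial genes. Of the 10 genes, 6 had a promoter in the RefSeq table used (GRCm38.p6), namely Cldn5, Flt1, Kdr, Tek, Tie1 and Ly6c1. The 250 bases before the start of 3 genes are printed 5′ to 3′ on the gene's strand, 1 for each role discussed first (tight junction, VEGF receptor, angiopoietin receptor), because these genes moved together across samples. Capitals mark GGAA or its complement TTCC. The windows are chr16:18776597-18776846 on the plus strand for Cldn5, chr5:147726012-147726261 on the minus strand for Flt1 and chr4:94739039-94739288 on the plus strand for Tek.
Cldn5: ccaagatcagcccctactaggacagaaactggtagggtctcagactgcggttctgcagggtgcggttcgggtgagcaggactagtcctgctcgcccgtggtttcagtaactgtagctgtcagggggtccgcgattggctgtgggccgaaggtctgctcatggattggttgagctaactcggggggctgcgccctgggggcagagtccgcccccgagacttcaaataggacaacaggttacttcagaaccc
Flt1: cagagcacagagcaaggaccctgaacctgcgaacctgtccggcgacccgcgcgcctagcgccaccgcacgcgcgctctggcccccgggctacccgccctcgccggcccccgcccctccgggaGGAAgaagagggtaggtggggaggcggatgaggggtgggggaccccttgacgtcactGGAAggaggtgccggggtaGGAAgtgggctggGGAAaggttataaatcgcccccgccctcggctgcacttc
Tek: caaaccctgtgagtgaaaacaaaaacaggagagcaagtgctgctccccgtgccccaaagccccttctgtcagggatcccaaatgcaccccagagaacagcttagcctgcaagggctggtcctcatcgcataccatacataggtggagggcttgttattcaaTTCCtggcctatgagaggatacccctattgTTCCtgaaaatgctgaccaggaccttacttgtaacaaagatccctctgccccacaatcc
The core occurred 4 times in the Flt1 window, 2 times in the Tek window and 0 times in the Cldn5 window. It is a common string, present in 93.4% of the 32851 windows of this length, with a median of 3 matches each. The Flt1 window was the richest in G and C (70.4%), against 59.6% for Cldn5 and 51.2% for Tek. These matches describe letters only and do not show binding.

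Cldn5, Cdh5, Pecam1 and Esam encode proteins of endothelial cell contacts. Cldn5 (claudin-5, ENSMUSG00000041378.2, chr16:18776847-18778262) measured 26.5, 20.9, 54.4 and 18.6 CPM in TR1 to TR4 and 10.5, 11.5 and 6.03 CPM in NR1 to NR3. Every temperature-responsive sample therefore lay above every non-responsive sample, with TR3 the highest of all 7 and NR3 the lowest. The means were 30.1 ± 16.6 CPM (SD, n = 4) and 9.35 ± 2.92 CPM (SD, n = 3), a fold of 3.22. Cdh5 (VE-cadherin, the adhesion protein of adherens junctions, chr8:104101625-104144511) measured 15.8, 10.7, 28.3 and 8.75 CPM in TR1 to TR4, against 5.10, 3.21 and 0.201 CPM in NR1 to NR3. The lowest of these, NR3, rested on 1 count, below the floor. Its fitted log2 fold change of 2.58 (SE 0.61) was the highest among the 10 genes and was 1.99 without NR3, 3.19 without NR1 and 3.25 with limma-voom.

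Pecam1 (CD31, an adhesion molecule of endothelial cells, platelets and leukocytes, chr11:106654217-106750628) measured 9.30, 7.49, 18.1 and 9.45 CPM in TR1 to TR4 and 3.00, 4.15 and 1.00 CPM in NR1 to NR3. Its groups did not overlap, and its fitted log2 fold change was 2.04 (SE 0.43). Esam (endothelial cell-selective adhesion molecule, a junction protein, chr9:37528078-37538319) departed from the other contact genes. Its values were 10.7, 9.63, 22.1 and 8.40 CPM in TR1 to TR4 and 5.40, 8.50 and 10.9 CPM in NR1 to NR3. NR3, the sample with the lowest summed level of the 10 genes, thus had the highest Esam among the non-responsive samples, and the groups overlapped. The fitted log2 fold change of Esam was 0.62 (SE 0.33), the lowest of the 10 genes, and it was 0.20 without TR3 and 1.58 with a covariate for genes detected.

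Flt1 and Kdr encode the VEGF receptors VEGFR1, which also acts as a decoy for VEGF, and VEGFR2, the main signalling receptor. Flt1 (chr5:147561604-147726011) measured 25.1, 20.9, 60.6 and 18.6 CPM in TR1 to TR4 and 13.5, 14.3 and 1.61 CPM in NR1 to NR3. The groups did not overlap, and both had 1 sample far from the others, TR3 above and NR3 below. The group means were 31.3 ± 19.7 CPM (SD, n = 4) and 9.82 ± 7.12 CPM (SD, n = 3), with a fitted log2 fold change of 1.72 (SE 0.79). Kdr (chr5:75932827-75978458) measured 9.76, 13.4, 11.97 and 11.6 CPM in TR1 to TR4 and 6.90, 1.89 and 3.62 CPM in NR1 to NR3. Its 4 temperature-responsive values were close together, with means of 11.7 ± 1.49 CPM (SD, n = 4) and 4.14 ± 2.55 CPM (SD, n = 3), and TR3 did not stand out. The fitted log2 fold change of Kdr was 1.56 (SE 0.38), and 0.89 with a covariate for genes detected.

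Tek and Tie1 encode the angiopoietin receptor TIE2 and its partner receptor TIE1. Tek (chr4:94739289-94874976) measured 16.3, 11.2, 28.3 and 7.35 CPM in TR1 to TR4 and 7.80, 2.27 and 3.01 CPM in NR1 to NR3. TR4 lay below NR1, so that Tek, like Esam, overlapped between the groups. Its fitted log2 fold change was 1.95 (SE 0.46), and 2.59 without NR1. Tie1 (chr4:118471191-118490061) was the lowest of the 10 genes in CPM, with 6.97, 4.82, 7.26 and 4.55 CPM in TR1 to TR4 and 3.00, 1.13 and 0.201 CPM in NR1 to NR3. The groups did not overlap, but the counts behind these values were between 1 and 20. The fitted log2 fold change of Tie1 was 2.15 (SE 0.59). It was 3.06 without NR1 and 1.42 with a covariate for genes detected.

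Ly6c1 encodes a surface protein of the Ly6 family that is abundant on brain capillary endothelium. Ly6c1 (chr15:75044018-75048830) measured 61.3, 25.2, 113.9 and 21.003 CPM in TR1 to TR4 and 13.8, 20.6 and 5.83 CPM in NR1 to NR3. TR4 and NR2 were nearly equal, although the groups did not overlap. The fitted log2 fold change was 2.06 (SE 0.81), 1.42 without TR3 and 2.66 with the covariate. Its reads are uncertain, since 32.8% of the 50-base windows of its transcripts also occur in transcripts of other genes and 21.5% occur in those of its neighbour in sequence, Ly6c2. No other gene of the 10 shared more than 1.54% of its windows, and none had exons overlapping another gene.

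Vwf encodes von Willebrand factor, the platelet-binding protein that endothelial cells store and release. Vwf (chr6:125546774-125686679) measured 6.04, 23.0, 17.8 and 7.001 CPM in TR1 to TR4 and 3.90, 3.78 and 1.61 CPM in NR1 to NR3. It was highest in TR2 rather than TR3 and lowest in TR1, an order unlike that of the junction genes. The groups did not overlap, and the fitted log2 fold change was 2.12 (SE 0.45), or 1.07 with the covariate.

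**Figure D1:**
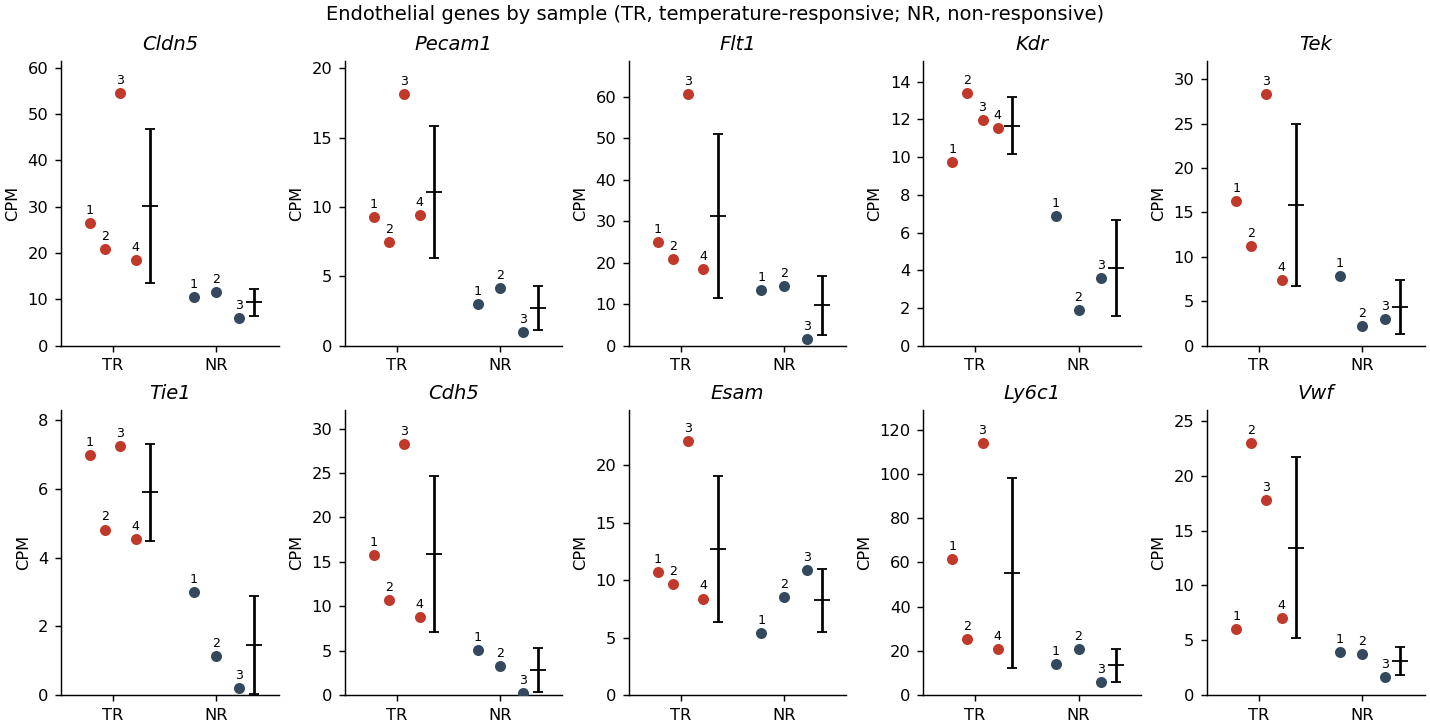
Each panel plots the CPM of 1 endothelial gene on a linear axis from 0, with a point per sample (numbers are replicates) and the mean ± SD of the 4 temperature-responsive (TR) and 3 non-responsive (NR) samples. TR3 is the highest TR point in 8 panels, and the groups overlap for Tek and Esam.

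Together, 10 of the 10 genes had a positive fitted log2 fold change, with a median of 2.00, beside a median of 0.01 over the 14407 genes tested. For 8 of the 10, every temperature-responsive sample exceeded every non-responsive sample, a pattern seen in 16.8% of all genes tested. Because the genes were selected on this contrast, nothing is read from these counts. Across that fit, 15.1% of genes passed the threshold with higher values in temperature-responsive samples and 14.9% with lower values (edgeR quasi-likelihood test, Benjamini-Hochberg adjusted p under 0.05). The higher calls were 50.3% of all calls, against 62.1% with upper quartile scaling and 37.3% with a GC offset. In these bulk samples, fewer cells of a type and less RNA per cell cannot be told apart.

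The summed level of the 10 genes was 187.8, 147.2, 362.8 and 115.2 CPM in TR1 to TR4 and 72.9, 71.4 and 34.0 CPM in NR1 to NR3. The groups did not overlap, and TR3 held 2.47 times the median of the other temperature-responsive samples. The means were 203.2 ± 110.5 CPM (SD, n = 4) and 59.4 ± 22.1 CPM (SD, n = 3), a fold of 3.42. Without TR3 the temperature-responsive mean was 150.03 ± 36.4 CPM (SD, n = 3), a fold of 2.53. In absolute terms these are rare transcripts. Between 169 and 1000 counts per sample fell on the 10 genes, or 0.00347% to 0.0362% of all counts.

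**Figure D2:**
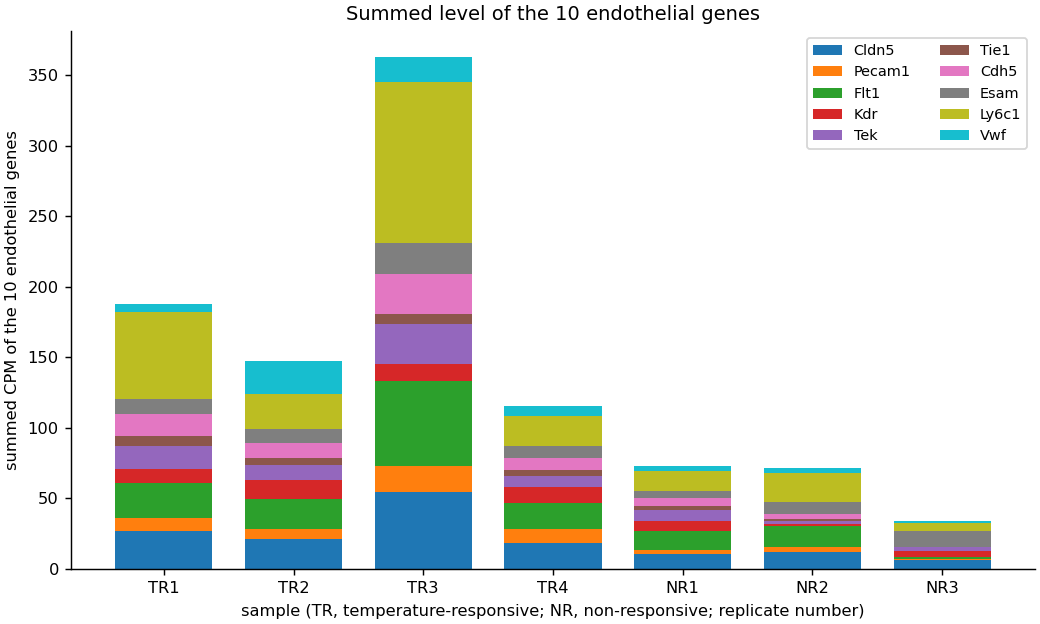
Stacked bars give the CPM of the 10 endothelial genes in each sample on a linear axis from 0, with 1 colour per gene. The bars end between 115.2 and 362.8 CPM in the temperature-responsive (TR) samples and between 34.0 and 72.9 CPM in the non-responsive (NR) samples.

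The makeup of this sum was steadier than its size for some genes and not for others. Cldn5 contributed between 14.1% and 17.8% of the sum in every sample. Flt1 contributed between 13.4% and 20.1% in 6 samples but 4.73% in NR3. Esam contributed 5.69% to 11.9% in 6 samples but 32.0% in NR3, where the small sum was led by Esam and Cldn5. Ly6c1 contributed 31.4% to 32.7% in TR1 and TR3 and 17.1% to 28.8% elsewhere. Vwf contributed 15.6% in TR2 and at most 6.08% elsewhere.

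Levels between genes were compared per kilobase of exon, within each group. In temperature-responsive samples the order of mean levels was Ly6c1 (33.0 CPM per kb), Cldn5 (21.2), Esam (4.43), Cdh5 (3.78), Tek (3.35), Flt1 (2.32), Pecam1 (1.78), Kdr (1.29), Tie1 (1.20) and Vwf (0.838). The step from Cldn5 to Esam was the only one there that exceeded the larger SD of its pair. In non-responsive samples the order began in the same way, with Ly6c1 (7.99 CPM per kb), Cldn5 (6.60) and Esam (2.88). It went on with Tek (0.925), Flt1 (0.727), Cdh5 (0.675), Kdr (0.458), Pecam1 (0.437), Tie1 (0.294) and Vwf (0.193), so that Cdh5 stood below Tek and Flt1, and Pecam1 below Kdr. Here the steps from Cldn5 to Esam and from Esam to Tek exceeded the larger SD, and the other neighbours did not differ by more than it.

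Samples also differed within each group. On log2 CPM (prior count 2), the 45 pairs of these genes had a median Pearson r of 0.82 over the 7 samples (range 0.28 to 0.97), a value that contains the group difference on which the genes were chosen. After each sample was expressed as its deviation from its group mean, the median r was 0.52 (range -0.33 to 0.97), and 39 of the 45 pairs were above 0. The 7 points share their libraries and depths. Cdh5 (r = 0.94), Cldn5 (r = 0.92), Flt1 (r = 0.91), Pecam1 (r = 0.85) and Ly6c1 (r = 0.83) followed the mean of the other 9 genes most closely within groups. Tie1 (r = 0.78) and Tek (r = 0.70) came next, and Vwf (r = 0.50), Esam (r = 0.17) and Kdr (r = 0.09) followed it least. TR3 was the highest temperature-responsive sample for 8 genes and TR4 the lowest for 7, while NR3 was the lowest non-responsive sample for 7.

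**Figure D3:**
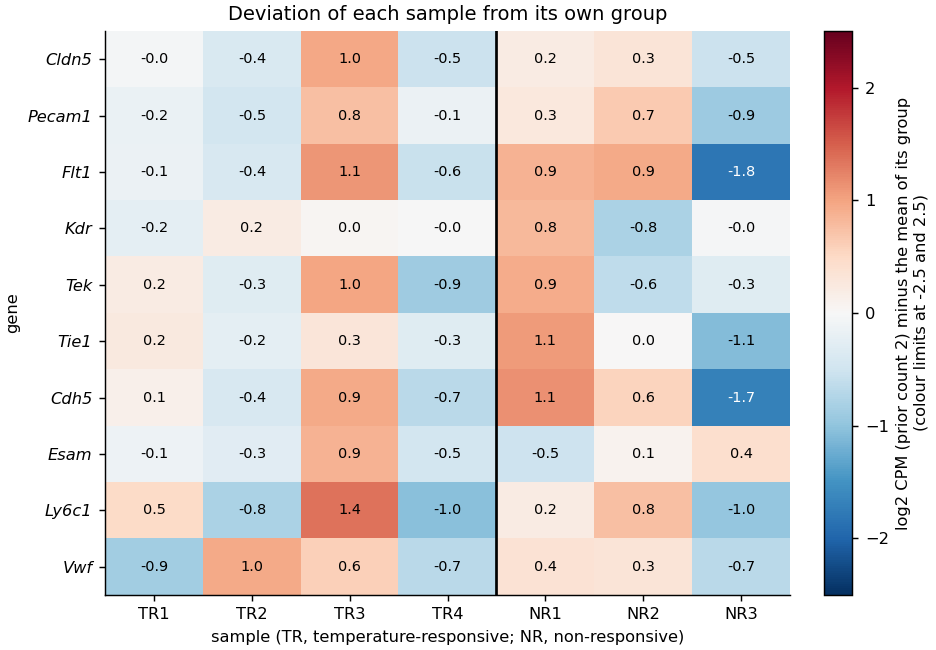
Colours and numbers give the log2 CPM (prior count 2) of each endothelial gene (rows) in each sample (columns) minus the mean of its own group, so that the difference between temperature-responsive (TR) and non-responsive (NR) samples is removed. The TR3 column is above 0 for all 10 genes shown, and the NR3 column is below 0 for 9 of them, with Esam as the exception at 0.42.

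Over 11201 genes with a mean of at least 10 CPM, the genes whose log2 CPM followed the mean of the 10 most closely were Hddc2 (r = 0.99), Arl4a (r = 0.99), Gm12709 (r = 0.99), Ssr4 (r = 0.99) and Arpc5 (r = 0.98). These are not endothelial markers, and their values moved over a narrow range, for example from 62.5 CPM in NR3 to 103.05 CPM in TR3 for Hddc2. On deviations from group means the closest were Alkbh1, Hist1h2bc, Rcbtb2, Arid1a and Hddc2 (r between 0.97 and 0.98). The median r over all these genes was -0.18 on log2 CPM and 0.02 on deviations, with 7 samples in each. On deviations, which leave out the group difference, the median r was 0.70 among other endothelial genes (12 genes), 0.64 among mural genes (9 genes) and -0.02 among neuron markers (8 genes). It was 0.66 for barrier transport, 0.40 for basement membrane, 0.35 for perivascular fibroblast and 0.30 for vessel segment genes. Blood genes (2 genes) had 0.29 and VEGF and angiopoietin partners -0.02. Astrocyte, microglia, choroid plexus and ependyma, and oligodendrocyte markers had 0.20, 0.10, 0.07 and -0.01. The requirement of 10 CPM was met by some of the vascular genes only through their temperature-responsive samples, and no list median is given on log2 CPM, where the group difference enters.

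A list of 25 other endothelial genes was set beside the 10, and 22 were tested. Of these, 13 rose in temperature-responsive samples, 0 fell and 9 did not pass, with a median log2 fold change of 1.42. Over all genes tested, 15.1% rose and 14.9% fell. The counts were 8 that rose and 1 that fell (Ramp2) without TR3, and Ramp2 also fell with limma-voom, with scaling by library size only and with all genes of at least 1 count. The rises were 7 without NR2, 7 without NR3, 7 where 10 counts were required of each sample, and 0 with a covariate for genes detected, where 8 had an unadjusted p under 0.05 in edgeR and the median of the 10 genes was 1.70. The number of genes detected did not overlap between the groups, though the gap was narrow (19852 in TR1 against 19820 in NR1). The covariate and the group can therefore be told apart only in part. Among the most abundant, Itm2a (a membrane protein of vessels and other tissues) rose, with 225.9, 109.2, 170.9 and 82.3 CPM in TR1 to TR4 and 60.6, 55.1 and 48.4 CPM in NR1 to NR3 (log2 fold change 1.44, SE 0.39, edgeR adjusted p = 0.0405), but it did not pass without TR2, TR3, NR1, NR2 or NR3, nor with the GC offset, thinning or all genes kept. Jam2 (a junctional adhesion molecule, 0.32, adjusted p = 0.0825), Cd34 (a sialomucin of endothelium and progenitors, 0.41, adjusted p = 0.141) and Egfl7 (a secreted endothelial protein, -0.07, adjusted p = 0.817) did not pass in edgeR.

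Further genes of this list were picked after their values were seen. Sox17, a transcription factor of arterial endothelium, rose by a log2 fold change of 2.49 (SE 0.50, edgeR adjusted p = 0.00098), from 0.402 to 3.40 CPM in non-responsive to between 7.35 and 17.1 CPM in temperature-responsive samples. Its lowest value, in NR3, rested on 2 counts, below the floor. Cd93, a surface receptor of endothelium, rose by 2.07 (SE 0.46, adjusted p = 0.0041), and Emcn, a sialomucin of capillaries and veins, by 1.40 (SE 0.46, adjusted p = 0.031). Emcn did not pass without TR1, TR3, NR2 or NR3, nor with the GC offset. Ptprb, the phosphatase that restrains TIE2, and Ly6a had log2 fold changes of 2.09 (SE 0.79, adjusted p = 0.109) and 2.08 (SE 0.86, adjusted p = 0.134) and did not pass in the main fit. Each passed under at least 1 alternative. Ramp2, a partner of the adrenomedullin receptor, went the other way, with 17.1 to 30.8 CPM in temperature-responsive and 30.9 to 34.2 CPM in non-responsive samples (-0.48, SE 0.19, adjusted p = 0.0505).

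Transport genes of the blood-brain barrier gave 5 genes that rose, 0 that fell and 7 that did not pass among 12 tested, with a median log2 fold change of 0.58. Among all genes tested, 15.1% rose and 14.9% fell. Tfrc, the transferrin receptor, rose from between 137.6 and 161.1 CPM in non-responsive to between 200.2 and 258.9 CPM in temperature-responsive samples (log2 fold change 0.55, SE 0.10, edgeR adjusted p = 0.00063), and it is also made by other brain cells. Slco1c1, a thyroid hormone transporter, rose by 1.03 (SE 0.23, adjusted p = 0.0034) and Slc16a1, a monocarboxylate transporter, by 0.42 (SE 0.12, adjusted p = 0.013). Slc2a1, the glucose transporter GLUT1, had a log2 fold change of 0.34 (SE 0.27, adjusted p = 0.373). Abcb1a, the efflux pump P-glycoprotein, was chosen after its values were seen and rose by 2.44 (SE 0.49, adjusted p = 0.0043), while Slco1a4, an organic anion transporter also chosen afterwards, had 1.95 (SE 0.69, adjusted p = 0.0918). Without TR1 Slc16a1 did not pass, and without NR3 Abcb1a did not. With an offset for GC content, Tfrc and Slc16a1 did not pass. The count was 3 without NR3, 2 with that offset and 0 with the covariate.

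Genes of arterial, venous and capillary segments gave 3 that rose and 1 that fell among 11 tested, with a median log2 fold change of 0.29. Over all genes tested, 15.1% rose and 14.9% fell. Counts this small are not read as a result about this list. Nr2f2 (the venous factor COUP-TFII, also found in neurons) rose by 0.29 (edgeR adjusted p = 0.049) and Efnb2 (arterial ephrin-B2) by 0.40 (adjusted p = 0.045), whereas Hey1 (0.10, adjusted p = 0.563) and Ackr1 (-0.24, adjusted p = 0.174) did not pass. Vcam1, named after its values were seen, was the other gene that rose (0.63, edgeR adjusted p = 0.0027). Its values under the alternatives are not given. The 3 rises became 1 without TR2, TR3, NR2 or NR3, 1 with DESeq2 or with scaling by library size only, and 0 with the covariate or the GC offset. Nr2f2 also did not pass without TR1, nor Efnb2 without TR4. Plvap, which marks fenestrated vessels outside the barrier and was picked after its values were seen, fell by 0.56 on the log2 scale (SE 0.18, adjusted p = 0.019), and did not pass without TR2, TR3, NR2 or NR3, nor with the GC offset or thinning. Car4, a carbonic anhydrase of capillaries picked the same way, was at -0.49 (SE 0.19, adjusted p = 0.0513).

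**Figure D4:**
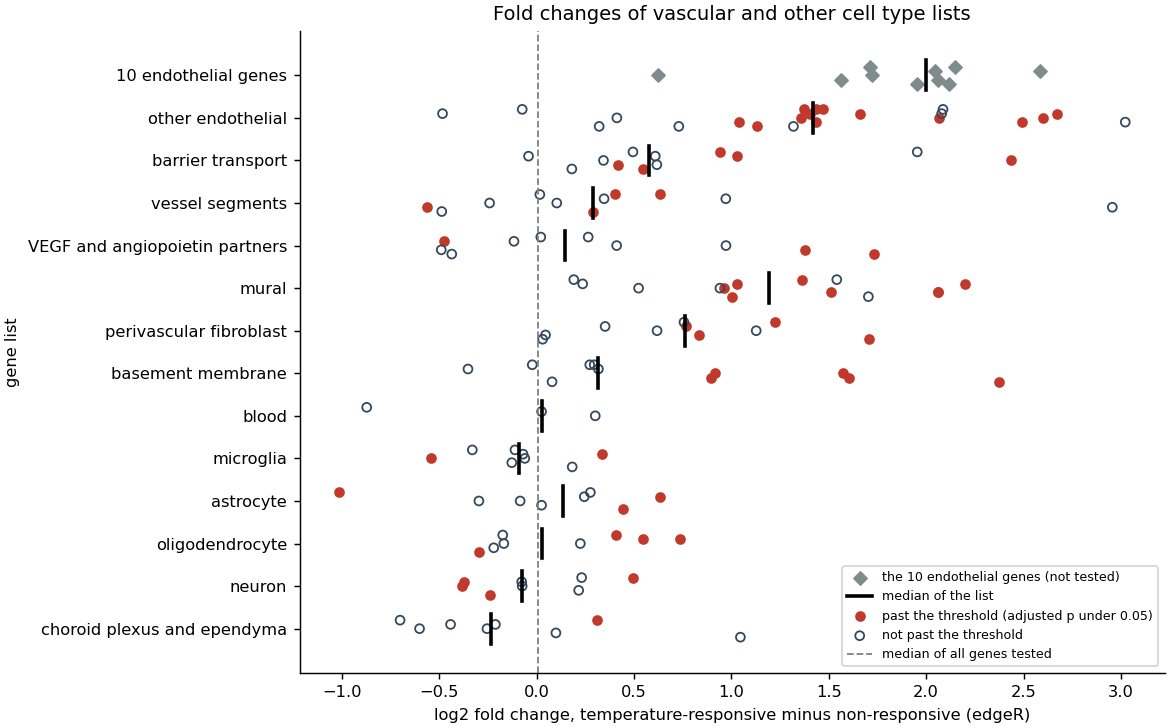
Each point is the fitted log2 fold change (temperature-responsive minus non-responsive) of 1 tested gene, by list, with filled points past the edgeR threshold, black bars for list medians and a dashed line for the median of all genes tested. The 10 endothelial genes, chosen on this contrast and drawn as untested diamonds, have a median of 2.00, other endothelial genes 1.42, mural genes 1.20 and neuron markers -0.08.

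The ligands and co-receptors of the VEGF and angiopoietin receptors gave 2 that rose and 1 that fell among 10 tested, with a median log2 fold change of 0.14. These shares are near those over all genes tested (15.1% higher and 14.9% lower), so the counts are not a result about this list. The counts were 0 and 0 without NR3, 1 and 1 without TR3, 3 and 0 without TR1, and 0 and 0 with the covariate. Among VEGF ligands, Vegfa had 0.27 (SE 0.13, edgeR adjusted p = 0.121), Vegfb -0.12 (adjusted p = 0.422), Vegfc 0.97 (SE 0.44, adjusted p = 0.102), Figf (VEGF-D) -0.49 (adjusted p = 0.394) and Pgf -0.44 (adjusted p = 0.205), and none passed. Flt4, the VEGF-C receptor VEGFR3, rose by 1.73 (SE 0.53, adjusted p = 0.0155), from 0.402 to 3.00 CPM in non-responsive to 5.11 to 7.35 CPM in temperature-responsive samples. The lowest Flt4 value, in NR3, rested on 2 counts, below the floor. Nrp2, a neuropilin that neurons also make, fell by 0.48 on the log2 scale (SE 0.15, adjusted p = 0.020), and Nrp1 was at 0.02 (adjusted p = 0.895). Of the ligands of TIE2, Angpt2 rose by 1.38 (SE 0.44, adjusted p = 0.021), at 3.25 to 9.80 CPM against 2.10 to 3.21 CPM, and Angpt1 had 0.41 (SE 0.20, adjusted p = 0.122). Without NR3 none of Flt4, Nrp2 and Angpt2 passed, without TR1 or after thinning Nrp2 did not, and without TR3 Angpt2 did not.

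Mural genes gave 8 that rose, 0 that fell and 6 that did not pass among 14 tested, with a median log2 fold change of 1.20. The shares of all genes tested were 15.1% higher and 14.9% lower. The count was 5 without TR3, NR2 or NR3, 5 after thinning to the smallest total and 0 with the covariate, where 6 had an unadjusted p under 0.05 in edgeR. Vtn, a secreted vitronectin of pericytes, rose from between 29.7 and 33.0 CPM to between 37.5 and 95.8 CPM (log2 fold change 1.01, SE 0.25, edgeR adjusted p = 0.0085), and Rgs5, a regulator of G protein signalling in pericytes, rose by 1.03 (SE 0.34, adjusted p = 0.031). Vtn did not pass without NR1, NR2 or NR3, nor Rgs5 without TR1, TR3, NR2 or NR3, with the GC offset or after thinning. Cspg4 (NG2, shared with oligodendrocyte precursors, 0.19, adjusted p = 0.402) and Notch3 (0.24, adjusted p = 0.616) did not pass. Picked after their values were seen, the pericyte genes Pdgfrb (1.36, adjusted p = 0.00076), Abcc9 (2.06, adjusted p = 0.00021) and Atp13a5 (1.51, adjusted p = 0.00056) rose.

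TR3 stood apart for some contractile genes and Gkn3, which were picked for that reason. Acta2, smooth muscle actin, measured 55.9 CPM in TR3 and between 3.30 and 9.44 CPM in the other 6 samples. Tagln, a smooth muscle actin-binding protein, measured 45.4 CPM in TR3 and between 0.930 and 5.63 CPM elsewhere, and Gkn3, a marker of brain arteries, measured 31.6 CPM against at most 5.11 CPM. Other arterial genes were mixed. Of these, Bmx, Gja4, Gja5 and Sema3g were named after their values were seen, and Bmx, Gja5 and Sema3g were not tested in the main fit. Bmx (9.07 CPM), Gja4 (8.71 CPM) and Sox17 (17.1 CPM) were also highest in TR3, against at most 1.86, 4.20 and 8.37 CPM elsewhere. Efnb2 was highest in TR2 (86.7 CPM, against 76.9 CPM in TR3) and Hey1 in TR1 (76.2 CPM, against 65.7 CPM). Gja5 (0.726 CPM, 2 counts, below the floor) and Sema3g (1.81 CPM, 5 counts) were lowest in TR3 among the temperature-responsive samples. Acta2, Tagln and Gkn3 did not pass in edgeR (adjusted p = 0.298, 0.427 and 0.159). Myh11, smooth muscle myosin, was also highest in TR3 (30.8 CPM) but rose in the comparison as well, with 8.83 to 15.5 CPM in the other temperature-responsive and 2.21 to 4.34 CPM in non-responsive samples (2.20, SE 0.41, adjusted p = 0.00077).

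Perivascular fibroblast genes gave 4 that rose and 0 that fell among 10 tested (median log2 fold change 0.76), and basement membrane genes 5 and 0 among 11 (median 0.32). The shares over all genes tested were 15.1% higher and 14.9% lower. Without NR3 or without TR2 the fibroblast count was 2, without TR2 the basement membrane count was 3, and both were 0 with the covariate. Dcn (decorin, 0.84, edgeR adjusted p = 0.0045) and Col6a3 (a collagen VI chain, 0.77, adjusted p = 0.035, not without TR2, NR2 or NR3) rose, although Dcn did not pass with the GC offset, nor Col6a3 when scaled by library size only or with all genes kept, whereas Pdgfra (0.05, adjusted p = 0.809) and Igfbp2 (0.03, adjusted p = 0.908) did not pass. The abundant basement membrane genes Sparc (-0.02, adjusted p = 0.889), Col4a2 (-0.35, adjusted p = 0.0905), Col4a1 (0.27, adjusted p = 0.167) and Lamb1 (0.08, adjusted p = 0.754) did not pass either. The 5 that rose were less abundant and are named because they passed. They were Hspg2 (2.37, edgeR adjusted p = 0.0028), Nid2 (1.61, adjusted p = 0.011), Lama4 (1.58, adjusted p = 0.0062), Nid1 (0.92, adjusted p = 0.020) and Lama5 (0.89, adjusted p = 0.013). Their values under the alternatives are not given gene by gene.

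Blood markers summed to between 37.7 and 53.0 CPM in temperature-responsive and between 30.5 and 48.3 CPM in non-responsive samples. The adult globin genes Hba-a1, Hba-a2, Hbb-bs and Hbb-bt are listed at 0 in every sample. How the counting treated reads shared between genes is not given, so a 0 need not mean absence. Of 11 listed blood genes 3 were tested and 0 passed in edgeR, where 1 had an unadjusted p under 0.05, and 0 passed with DESeq2 or limma-voom. Alas2 passed as lower without TR1 (adjusted p = 0.0258). Slc4a1, named after its values were seen, was tested only once all genes with at least 1 count were kept, and passed there as higher. In the main edgeR fit the 3 tested genes had log2 fold changes of 0.03 for Ptprc (adjusted p = 0.944), 0.30 for Cd52 (adjusted p = 0.448) and -0.87 for Alas2 (adjusted p = 0.101).

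The marker sums of microglia, astrocytes, oligodendrocytes, neurons and choroid plexus and ependyma overlapped between the groups. Counts of called markers stand beside 15.1% higher and 14.9% lower over all genes tested. With 8 markers per list, they are not read as a result about these lists. Microglia markers summed to between 704.2 and 739.1 CPM in temperature-responsive and between 723.5 and 735.8 CPM in non-responsive samples (1 of 8 rose, 1 fell, median log2 fold change -0.09). Astrocyte markers summed to between 2392 and 2665 CPM against 2201 and 2471 CPM (2 rose, 1 fell, median 0.14), oligodendrocyte markers to between 3708 and 5007 CPM against 3221 and 3996 CPM (3 rose, 1 fell, median 0.03), neuron markers to between 3449 and 3879 CPM against 3256 and 3677 CPM (1 rose, 3 fell, median -0.08), and choroid plexus and ependyma markers to between 314.2 and 405.1 CPM against 282.2 and 372.1 CPM (1 rose, 0 fell, median -0.23). By contrast, the other endothelial genes summed to between 397.0 and 910.7 CPM against 242.6 and 343.2 CPM, and the mural genes to between 200.2 and 439.4 CPM against 123.5 and 156.9 CPM, without overlap. The sums of barrier transport genes (500.2 to 750.1 CPM against 385.3 to 452.5 CPM) and of perivascular fibroblast genes (168.7 to 222.1 CPM against 140.1 to 163.7 CPM) did not overlap either. Other vascular sums did overlap. These were vessel segment genes (549.6 to 664.4 CPM against 519.1 to 552.2 CPM) and basement membrane genes (750.8 to 892.6 CPM against 733.9 to 823.1 CPM). So did VEGF and angiopoietin partners (462.1 to 550.7 CPM against 495.4 to 497.5 CPM) and blood genes (37.7 to 53.0 CPM against 30.5 to 48.3 CPM). Abundant genes lead such sums. In the basement membrane list, Sparc alone measured 483.1 to 571.2 CPM in temperature-responsive and 504.3 to 581.8 CPM in non-responsive samples. An overlapping sum therefore does not describe the less abundant genes of its list, some of which rose, as given above. Of single genes tested, 16.8% were higher in every temperature-responsive sample. The part of mural and other vascular transcripts, of depth and of the number of genes detected in the difference of the 10 genes was not tested.

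**Figure D5:**
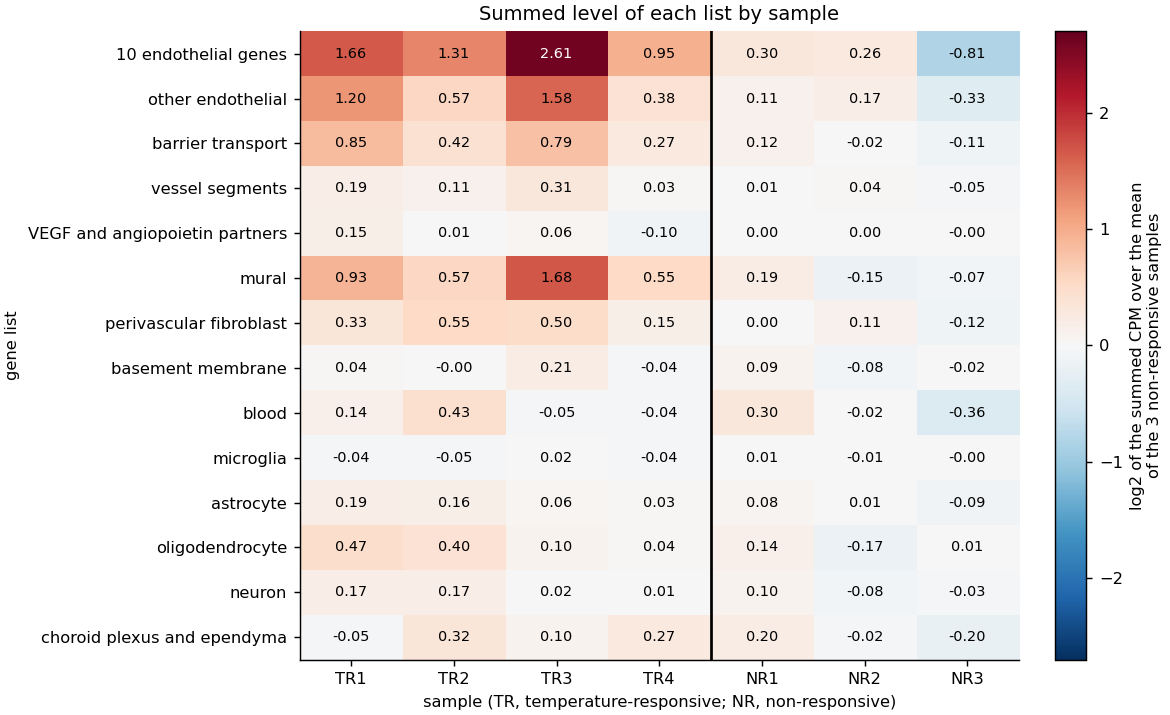
Colours and numbers give the log2 ratio of each list's summed CPM in a sample (columns, 4 temperature-responsive TR and 3 non-responsive NR) to the mean of the 3 non-responsive samples. The 10 endothelial genes reach 2.61 and mural genes 1.68 in TR3, and microglia markers stay between -0.05 and 0.02. Oligodendrocyte markers reach 0.47 in TR1, above the highest values of vessel segment genes (0.31 in TR3) and basement membrane genes (0.21 in TR3).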

How the data were processed

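RNA from 4 temperature-responsive and 3 non-responsive samples of 2 pooled neurons each was amplified with a SMART-seq kit. The authors aligned reads to mm10 with STAR 2.6.0, removed duplicates, and deposited raw HTSeq 0.9.1 read counts per gene symbol (versions from the submitters' processing notes); strand and annotation are not given in the sources used here. The 10 genes and the other lists were chosen with earlier results of these data known, so neither the choice nor the direction is independent evidence.

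Genes reaching 10 counts in 3 or more samples (14407) were fitted with edgeR 4.0.16 in R 4.3.3 (quasi-likelihood, robust, TMM, two-sided, Benjamini-Hochberg, threshold 0.05). For Sox17, Cd93, Flt4 and Angpt2, too few non-responsive samples reached 10 counts, so the filter was met through the temperature-responsive samples. SE is the log2 fold change over the square root of F. CPM use TMM library sizes, and log2 CPM a prior count of 2. Exon lengths and coordinates are from GENCODE M21 (mm10), with 98.5% of symbols found. Adgrl4, Adgrf5 and Vegfd were matched as Eltd1, Gpr116 and Figf. DESeq2 1.42.0, limma 3.58.1 and a GC offset (mgcv 1.9.3) were alternatives, with other scalings, filters, thinning, a genes-detected covariate, the replicate block and omission of each sample. The fit was tested on simulated data. Pairs of samples within a group had counts further apart than sampling alone gives (chi-square over degrees of freedom, 2.03 to 5.11).

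Named genes were the 10, the 4 most abundant tested genes of each vascular, fibroblast, basement membrane and blood list, tested VEGF and angiopoietin partners, and the 5 genes most alike on either scale. Genes named otherwise are said to be chosen after their values were seen.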

Additional observations from a re-analysis of the deposited data

Results flagged for a closer look

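In the temperature-responsive group of 4 samples, TR3 lay far above the other 3 for some genes, by the ratio of its gap to the group's range (Dixon's test). Among the 10 endothelial genes this held for Flt1 (0.844) and Esam (0.833). It also held for Cd34 (0.947) and for the summed microglia markers (0.909), whose range in CPM was narrow. Sox17 (0.895), Acta2 (0.973), Tagln (0.937) and Gkn3 (0.887) passed as well, but they were picked after their values were seen, and Acta2, Tagln and Gkn3 because TR3 was high. Of 78 measures tested, 8 passed, and chance alone passes about 1 in 20 of independent measures. These measures share the same 4 libraries, every flag was TR3, and some were picked for a high TR3. The number that passed can therefore not be set against that rate. The cause was not tested.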

How the results depend on the processing

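The fitted log2 fold changes of the 10 endothelial genes were positive under every alternative that gave a value. Their median was 1.70 to 2.16 under the other alternatives, the highest of them with the replicate block and 1.52 to 2.17 with each sample left out in turn. Tie1 was not tested after thinning, and the filter of at least 10 counts in every sample left 5 of the 10. The summed level differed by 1.72 on the log2 scale, by 1.35 to 1.94 with each sample left out and by 1.94 with the replicate block. The genes past the threshold ranged from 2620 to 4583 with each sample left out, and the other endothelial genes past it from 7 to 15. With a covariate for genes detected, 1 gene and 0 other endothelial genes passed (2061 and 8 at an unadjusted p under 0.05), and the covariate did not overlap between the groups. With at least 10 counts in every sample, 7 other endothelial genes passed among 14 tested, and fewer genes were tested. Of the called genes, 50.3% were higher in temperature-responsive samples, against 62.1% with upper quartile scaling and 37.3% with a GC offset. Same-numbered samples of the 2 groups did not deviate together (mean r -0.053), so the replicate block rests on a number only. It gave 4120 genes, 14 other endothelial genes and a median of 2.16. Jam2, Ptprb, Ly6a, Slco1a4, Car4, Vegfa, Vegfc, Angpt1, Col4a1 and Col4a2 missed the threshold in the main fit but passed under at least 1 alternative. Ramp2 and Alas2 did too, as given above.

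Signs turned for 14 of the list genes named, of which 1, Efnb2, had been called. Sparc was 0.042 with upper quartile scaling, 0.0010 with 10 counts in every sample, 0.0092 after thinning and 0.020 with the replicate block. Ptprc was -0.0083 in limma-voom, -0.028 under scaling by library size only, -0.067 over all genes with 1 count, -0.23 with the covariate and -0.27 with the GC offset. Library size only gave -0.022 for Igfbp2, -0.032 for Nrp1 and -0.0063 for Pdgfra. All genes with 1 count gave -0.058 for Igfbp2, -0.012 for Lamb1, -0.069 for Nrp1 and -0.046 for Pdgfra. The covariate gave -0.50 for Cd52, -0.067 for Efnb2, 0.091 for Egfl7, 0.065 for Figf, -0.36 for Lamb1 and 0.32 for Pgf. The GC offset gave 0.018 for Egfl7, -0.20 for Nrp1, -0.029 for Pdgfra and 0.12 for Vegfb, and thinning gave 0.11 for Egfl7. Leaving out 1 sample at a time, the range was -0.20 to 0.12 for Egfl7, -0.078 to 0.139 for Igfbp2, -0.061 to 0.187 for Lamb1, -0.15 to 0.55 for Notch3, -0.049 to 0.090 for Nrp1, -0.096 to 0.161 for Ptprc, -0.071 to 0.047 for Sparc and -0.79 to 1.91 for Tagln, which was lowest without TR3. The causes were not tested.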
